A study of Mus musculus with 38 samples.

Results

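The colony stimulating factors and their receptors were followed through mouse lung adenocarcinoma organoids in which the forkhead transcription factors Foxa1 and Foxa2 can be deleted by treatment. The 7 genes are the secreted factors Csf1, Il34, Csf2 and Csf3 and the receptor genes Csf1r, Csf2ra and Csf2rb. They were taken by name, and each symbol was found once among the Ensembl gene IDs, which number 55421 in the double-floxed table and 55487 in each of the other tables. The list was proposed after changes of these genes had been seen in the same data. The double-floxed levels of all 7 and the Foxa2-floxed level of Csf1r are therefore given as a description, without a test.

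Organoids are small clusters of tumour cells grown here in Matrigel with L-WRN conditioned medium. Every line came from an individual tumour of a mouse on a mixed 129/B6 background. All carried the KrasFSF-G12D oncogene allele and the p53frt allele of the tumour suppressor, together with Rosa-FSF-CreERT2, which expresses a Cre recombinase that 4-hydroxytamoxifen (4-OHT) switches on. Lines 1027B, 1027D and 1292B had Foxa1flox and Foxa2flox, lines 1552A, 1552B and 1552C had Foxa1flox alone, and lines 1267B and 1526C had Foxa2flox alone. For 72 h cultures received 4-OHT at 2 uM or its vehicle, ethanol; the sources used here do not give the time of RNA collection. The double-floxed groups held 5 vehicle and 5 4-OHT libraries, the Foxa1-floxed groups 6 and 6, and the Foxa2-floxed groups 4 and 4. In a further experiment line 1027B carried either a control hairpin of scrambled sequence (shScramble) or one directed at the lung lineage factor Nkx2-1 (shNKX2-1), with 2 libraries for each hairpin and treatment. No line lacked a floxed gene, so gene loss cannot be told apart from other effects of 4-OHT or active Cre. Repeat libraries of a line share a tumour, so p-values measure the spread between libraries and between very few tumours. Those of the hairpin experiment come from a single line and hold no spread between tumours. In bulk RNA, fewer cells of a type and less RNA per cell cannot be told apart.

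Csf1 (macrophage colony stimulating factor) and Il34 (interleukin 34) are separate ligands of the receptor tyrosine kinase encoded by Csf1r, which is best known for keeping macrophages and their precursors alive. Csf2 (GM-CSF) acts through a specific alpha chain, Csf2ra, and a signalling beta chain, Csf2rb, and in the lung it is made by alveolar epithelium and is needed for alveolar macrophages to mature. Csf3 (G-CSF) drives neutrophil production and release through its own receptor, Csf3r. Tumour cells of epithelial origin can secrete these factors, while their receptors are found mostly on myeloid cells.

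The stretches of 250 bases before the start sites of Csf1 and Csf2 are shown because these ligands had the widest ranges of level between libraries. Both are written 5′ to 3′ on the gene's strand, from RefSeq on GRCm38.p6, whose promoter table held 3 of the 7 genes (Csf1, Csf2 and Csf2ra). The Csf1 window lies at chr3:107760470-107760719 and the Csf2 window at chr11:54249900-54250149, both on the minus strand. Capitals mark a match to one of 3 motifs.
Csf1: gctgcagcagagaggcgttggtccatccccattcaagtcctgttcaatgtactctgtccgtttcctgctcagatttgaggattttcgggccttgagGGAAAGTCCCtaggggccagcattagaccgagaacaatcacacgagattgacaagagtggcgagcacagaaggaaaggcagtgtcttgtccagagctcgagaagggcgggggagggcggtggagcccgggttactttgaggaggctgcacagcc
Csf2: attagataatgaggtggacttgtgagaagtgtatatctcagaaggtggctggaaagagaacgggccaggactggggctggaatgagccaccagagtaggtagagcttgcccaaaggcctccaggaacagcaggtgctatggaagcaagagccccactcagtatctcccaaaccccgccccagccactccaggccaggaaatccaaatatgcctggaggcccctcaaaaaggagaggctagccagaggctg
On both strands the windows were searched for a forkhead motif (TGTTTAC), an AP-1 motif (TGACTCA) and an NF-kB motif, whose letters are the capitals of the Csf1 line read on the other strand. Of the 3, the NF-kB motif occurred in the Csf1 window, at bases -154 to -145 counted from the start, and it occurs in 0.14% of 32851 promoter windows of the same length. The forkhead motif occurs in 3.17% and the AP-1 motif in 4.46% of these windows. None of the 3 motifs was found in the Csf2 or Csf2ra window. The RefSeq start of Csf2 used here lies upstream of its start in the GENCODE M21 annotation (54249667), and the bases between that start and the window were not searched. These are matches of letters and describe no binding.

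Total counts (M, mega) were 18.3 to 32.0 M in double-floxed, 18.5 to 33.2 M in single-floxed and 13.6 to 16.3 M in hairpin libraries. Levels are counts per M counts (CPM) of a library total scaled by the trimmed mean of M values (TMM), and differences were tested with edgeR's quasi-likelihood test, calling a gene at an adjusted p under 0.05 over all genes tested. A limit of 3 counts corresponds to 0.0863 to 0.169 CPM in double-floxed, 0.0917 to 0.155 CPM in single-floxed and 0.177 to 0.245 CPM in hairpin libraries, covering counting error only. After 4-OHT, Foxa2 was at 0.327 to 6.17 CPM in every group that carried its floxed allele, against 60.5 to 188 CPM with vehicle. Foxa1 went from 41.8 to 80.3 CPM to 13.9 to 17.4 CPM in Foxa1-floxed and from 17.3 to 87.4 CPM to 8.89 to 18.3 CPM in double-floxed libraries. In the hairpin libraries Foxa1 was at 22.1 to 34.1 CPM with vehicle and 18.5 to 21.9 CPM after 4-OHT, a difference that was not called with either hairpin (adjusted p = 0.469 and 0.236). Nkx2-1 was at 359 to 428 CPM with shScramble and 181 to 350 CPM with shNKX2-1, which was not called either (adjusted p = 0.755 with vehicle and 0.0763 with 4-OHT). The library of shNKX2-1 4-OHT replicate 2 stood apart, with 11.7% of its counts from mitochondrial genes against 1.09 to 4.30% in the other 37. The changes of Csf1, Il34, Csf1r, Csf2 and Csf3 with 4-OHT under shNKX2-1 are given without it as well. Other results that use this library, such as the contrasts between hairpins, are not given singly without it.

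Csf1 was at a higher level after 4-OHT in all 5 pairs of double-floxed libraries. In replicates 1 to 5 its vehicle levels were 3.64, 0.815, 9.01, 32.0 and 1.04 CPM, and its levels after 4-OHT were 84.2, 20.1, 68.2, 182 and 34.5 CPM. Of the 4-OHT libraries, 4 of 5 were above every vehicle library. The exception was 4-OHT replicate 2 of line 1027D, below vehicle replicate 4 of line 1027B. The means were 9.30 ± 13.1 CPM (SD, n = 5) and 77.8 ± 63.7 CPM (n = 5), and the fitted log2 change was 3.60 (SE 0.66). Line 1027D had the largest ratio of 4-OHT to vehicle means, 29.4-fold, beside 7.48-fold in 1027B and 7.57-fold in 1292B. The pairs of line 1027B differed with the number that opens the library title, with 23.1-fold under 17699 and 5.69-fold under 17992, and those of 1027D were 24.7-fold and 33.2-fold. The sources used here do not say what these numbers mark.

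**Figure D1:**
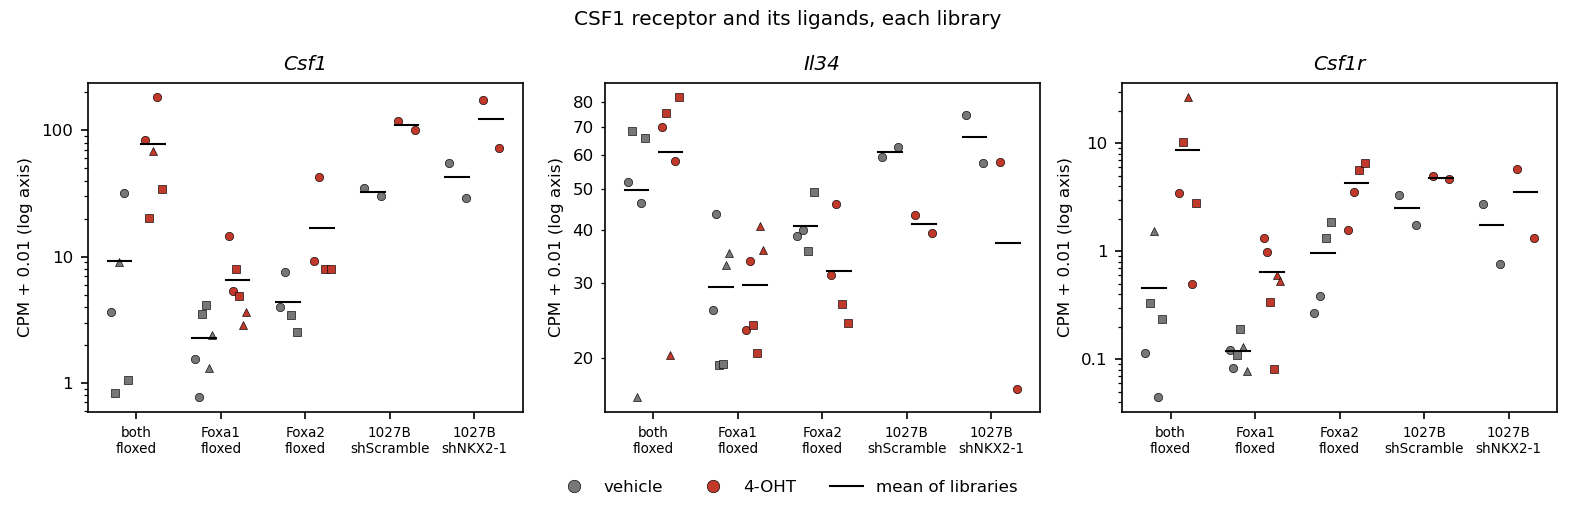
Levels of Csf1, Il34 and Csf1r in each library (CPM + 0.01, log axis) by genotype or hairpin group, with vehicle in grey and 4-OHT in red. Bars are means over libraries and marker shapes separate organoid lines within a group (circle 1027B, 1552A or 1267B; square 1027D, 1552B or 1526C; triangle 1292B or 1552C). Csf1 after 4-OHT in double-floxed libraries spans 20.1 to 182 CPM, while Il34 stays between 16.2 and 82.0 CPM in all 38 libraries.

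With a single gene floxed, the differences of Csf1 did not pass the test. Its median after 4-OHT was 8.63 CPM in Foxa2-floxed and 5.12 CPM in Foxa1-floxed libraries, beside 68.2 CPM in double-floxed libraries. The vehicle medians were 3.71, 1.96 and 3.64 CPM in that order. The double-floxed libraries are of other lines, in a table normalised separately. In Foxa2-floxed replicates 1 to 4 it was at 3.98, 7.57, 3.45 and 2.51 CPM with vehicle and at 9.23, 42.5, 8.04 and 7.92 CPM after 4-OHT. The groups did not overlap, as was the case for 1.44% of all genes in the upward direction. The log2 change of 1.80 (SE 0.53, adjusted p = 0.0750) was not called by edgeR in the reported fit. It passed in 4 of 17 alternatives, DESeq2 among them. The ratios were 4.48-fold in line 1267B and 2.68-fold in line 1526C. Most of the spread came from 4-OHT replicate 2 of line 1267B, without which the log2 change was 1.13 (adjusted p = 0.285). In Foxa1-floxed organoids the vehicle levels ran from 0.770 to 4.14 CPM (median 1.96) and the 4-OHT levels from 2.86 to 14.5 CPM (median 5.12). There, 4 of the 6 4-OHT libraries were above every vehicle library, and the log2 change was 1.499 (SE 0.45, adjusted p = 0.227). Line 1552A had a ratio of 8.63-fold, and 1552B and 1552C had 1.67-fold and 1.76-fold. The difference between the Foxa2-floxed and Foxa1-floxed effects, tested on counts summed per line, was 0.41 on the log2 scale (95% interval -1.37 to 2.19, adjusted p = 0.980).

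In line 1027B with shScramble, Csf1 was at 34.8 and 30.4 CPM with vehicle and at 118 and 101 CPM after 4-OHT. With shNKX2-1 it was at 55.5 and 29.2 CPM with vehicle and at 174 and 72.1 CPM after 4-OHT. Both pairs of groups were separate, as were 32.6% and 24.9% of all genes in the upward direction with 2 libraries a group. The log2 changes of 1.75 (SE 0.44, adjusted p = 0.0757) and 1.54 (SE 0.44, adjusted p = 0.0823) did not pass the threshold, although DESeq2 called both. Without shNKX2-1 4-OHT replicate 2, the second became 2.04 (SE 0.32, adjusted p = 0.0126). These libraries come from the tumour line of double-floxed replicates 1 and 4 and are not an independent tumour. Their vehicle levels, in a table normalised separately, were near the 32.0 CPM of replicate 4 and above the 3.64 CPM of replicate 1.

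Il34, the other ligand of the Csf1 receptor, had counts in every library and a narrow range. In double-floxed replicates 1 to 5 it was at 52.0, 68.4, 16.2, 46.3 and 65.8 CPM with vehicle and at 69.9, 75.4, 20.3, 58.0 and 82.0 CPM after 4-OHT. Each 4-OHT library was above its paired vehicle library, by 1.17-fold to 1.30-fold per line, and 3 of the 5 were above every vehicle library. The single library pair of line 1292B was lowest in both groups. The fitted log2 change was 0.31 (SE 0.12). In Foxa1-floxed organoids the range was 19.2 to 43.7 CPM with vehicle (median 29.4) and 20.6 to 40.9 CPM after 4-OHT (median 28.8), and the log2 change of 0.03 had a 95% interval from -0.31 to 0.37 (adjusted p = 0.968). In Foxa2-floxed organoids it was at 38.7, 39.996, 35.7 and 49.1 CPM and then at 31.4, 46.0, 26.8 and 24.1 CPM, with a log2 change of -0.38 (SE 0.20, adjusted p = 0.424). The 2 lines differed there, with a ratio of 0.983 in 1267B and 0.600 in 1526C. With shScramble the levels were 59.5 and 62.5 CPM and then 43.3 and 39.2 CPM, separate as were 28.6% of all genes in the downward direction, with a log2 change of -0.56 (SE 0.47, adjusted p = 0.680). With shNKX2-1 they were 74.7 and 57.4 CPM and then 57.7 and 16.9 CPM, with a log2 change of -0.82 (SE 0.47, adjusted p = 0.307). The low value belongs to the library with the high mitochondrial share, without which the change was -0.20 (adjusted p = 0.593). No comparison called Il34.

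Csf1r, the receptor for both ligands, was scarce with vehicle in every genotype. In double-floxed replicates 1 to 5 it was at 0.105, 0.326, 1.54, 0.0354 and 0.226 CPM with vehicle and at 3.48, 10.2, 26.5, 0.492 and 2.82 CPM after 4-OHT. All 5 pairs differed in the same direction, and 4 of the 5 4-OHT libraries were above every vehicle library. The exception, 4-OHT replicate 4 of line 1027B, was below vehicle replicate 3 of line 1292B. Summed over libraries, vehicle counts were 3 in line 1027B, 11 in 1027D and 29 in 1292B, and 4-OHT counts were 82, 303 and 471. The ratios of mean levels were 28.2-fold, 23.5-fold and 17.3-fold in that order, and the first rests on very few vehicle counts. The fitted log2 change was 4.49 (SE 0.66). In double-floxed organoids none of the 7 genes had every 4-OHT library above every vehicle library, as 1.63% of all genes did, and 1.99% of all genes were called higher.

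In Foxa2-floxed replicates 1 to 4, Csf1r was at 0.258, 0.379, 1.31 and 1.87 CPM with vehicle and at 1.58, 3.52, 5.63 and 6.57 CPM after 4-OHT. Line 1526C was the higher in both groups, so that 4-OHT replicate 1 of line 1267B fell within the vehicle range. The ratios were 8.003-fold in 1267B and 3.84-fold in 1526C, and the log2 change was 2.37 (SE 0.44). In Foxa1-floxed organoids Csf1r was lowest, with 0.0683 to 0.182 CPM with vehicle (median 0.106) and 0.0725 to 1.32 CPM after 4-OHT (median 0.559). There, 5 of the 6 4-OHT libraries were above every vehicle library, and 4-OHT replicate 4 of line 1552B was within the vehicle range. The log2 change of 2.31 (SE 0.47) did not pass the test over all genes (adjusted p = 0.106). It passed in 4 of 22 alternatives and in none of the others. These 4 were without line 1552B, without 4-OHT replicate 4 of that line, without a filter on low counts and in DESeq2. The ratios were 12.4-fold in 1552A, 1.44-fold in 1552B and 5.95-fold in 1552C. Because Csf1r was chosen from the Foxa2-floxed comparison, its difference between the genotypes' effects is given without a test, as 0.12 on the log2 scale (SE 1.02).

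Line 1027B with a hairpin held more Csf1r at the start and differed less. With shScramble it was at 3.30 and 1.76 CPM and, after 4-OHT, at 4.96 and 4.65 CPM, a log2 change of 0.92 (SE 0.75, adjusted p = 0.670). With shNKX2-1 it was at 2.71 and 0.751 CPM and then at 5.75 and 1.31 CPM, a log2 change of 1.05 (SE 0.78, adjusted p = 0.413). The shNKX2-1 groups overlapped, and without 4-OHT replicate 1 the sign turned, to -0.40. Without 4-OHT replicate 2, the change was 1.75 (adjusted p = 0.165). The same line without a hairpin was at 0.105 and 0.0354 CPM with vehicle, in a table normalised separately.

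Since Csf1r is mainly a macrophage gene, markers of other cell types were set beside it. Of the defining macrophage genes, Adgre1 (F4/80) had 2 counts and C1qa (a complement subunit) 1 count in all 38 libraries together. Tyrobp (a myeloid adaptor), a macrophage marker outside the defining set, had 1 count. Spi1, the myeloid factor PU.1, was at most 0.955 CPM, and Ptprc, the leukocyte antigen CD45, at most 3.18 CPM. In double-floxed organoids Ptprc was at 0.0527 to 2.69 CPM with vehicle and at 0.620 to 1.65 CPM after 4-OHT, so its ranges overlapped. With shScramble Ptprc was at 0.590 to 0.743 and then at 2.78 to 3.18 CPM, separate as were 32.6% of all genes in the upward direction. Its ranges overlapped with shNKX2-1 (0.805 to 2.19 and 0.609 to 1.31 CPM). They also overlapped in Foxa1-floxed (0.0992 to 0.956 and 0.153 to 0.786 CPM) and Foxa2-floxed organoids (0.0841 to 0.671 and 0.529 to 1.17 CPM). These genes were picked out of the list of 17 markers described next after their values were seen. Per kilobase of exon (18313 bases for Ptprc, the longest of them), Ptprc, Spi1, Adgre1 and C1qa together were at 0.0475 to 0.385 CPM per kb with vehicle and at 0.0547 to 0.206 CPM per kb after 4-OHT in these organoids. Csf1r on the same scale was at 0.00613 to 0.266 and at 0.0852 to 4.60 CPM per kb. It exceeded the 4 markers together in 2 of 5 double-floxed vehicle and 4 of 5 4-OHT libraries, in 4 of 4 and 4 of 4 Foxa2-floxed libraries, and in 1 of 6 and 5 of 6 Foxa1-floxed libraries. The tally was 2 of 2 and 2 of 2 with shScramble, and 1 of 2 and 2 of 2 with shNKX2-1. It depends on the choice of markers and on the lengths used. These join the exons of all annotated transcripts of a gene, with 5774 bases for Csf1r. A transcript shorter than that length would stand higher on this scale, and the transcripts present were not measured. With shScramble the 4 markers together were at 0.041 to 0.076 CPM per kb with vehicle and 0.176 to 0.219 after 4-OHT. Csf1r was there at 0.304 to 0.572 and 0.805 to 0.859 CPM per kb.

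**Figure D2:**
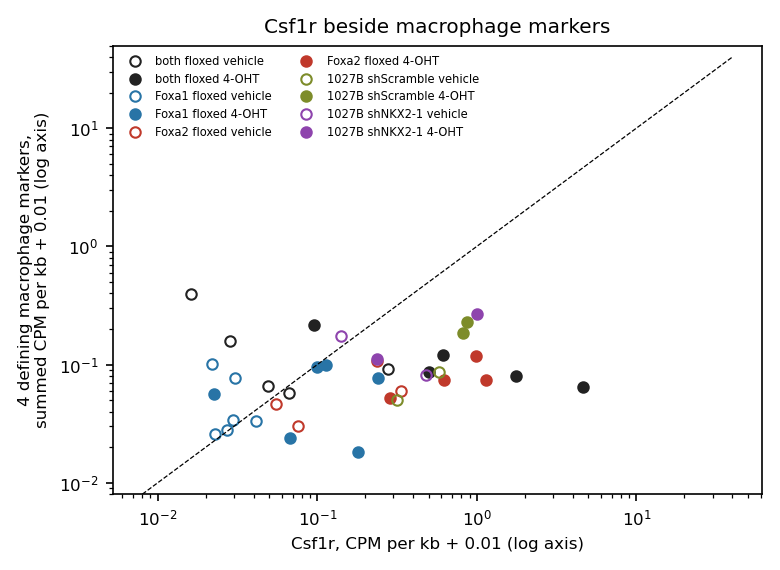
Csf1r against the sum of 4 defining macrophage markers (Ptprc, Spi1, Adgre1 and C1qa) in each of 38 libraries, both in CPM per kb of exon + 0.01 on log axes. Open points are vehicle and filled points 4-OHT, colours give the group, and the dashed line marks equal levels. Csf1r is the higher in 27 of the 38 libraries, those to the right of the line. This tally depends on the choice of markers, which were picked from a list of 17 after their values were seen. Adgre1 and C1qa had 2 and 1 counts in all. Mrc1, Cd14 and Cd68, which made up most of that list's sum in double-floxed organoids, are left out.

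The whole list of 17 macrophage markers summed to 67.3 to 537 CPM with vehicle and 72.2 to 141 CPM after 4-OHT in double-floxed organoids, with 7 and 5 of the genes at 0 in every library of the group. Most of it came from Mrc1, the mannose receptor (8.17 to 305 CPM with vehicle and 3.32 to 50.7 CPM after 4-OHT), Cd14 (49.3 to 214 and 17.96 to 68.9 CPM) and Cd68 (4.19 to 18.3 and 6.51 to 31.5 CPM), none of them called. In Foxa1-floxed organoids the sums were 76.1 to 188 and 94.8 to 185 CPM (6 and 2 genes at 0), and in Foxa2-floxed organoids 56.8 to 188 and 118 to 214 CPM (6 and 5 genes at 0). With shScramble they were 85.8 to 109 and 40.3 to 52.5 CPM (10 and 10 genes at 0), and with shNKX2-1 126 to 160 and 40.3 to 148 CPM (11 and 10 genes at 0). Of the markers with enough counts to test, none of 4 was called in double-floxed (3.9% of all genes were), none of 7 in Foxa1-floxed (0.0118%) and none of 5 with shScramble (4.33%) or shNKX2-1 (6.35%). At an unadjusted p under 0.05 edgeR had 1, none, 1 and none of them in that order. Over all genes it had 3088 of 15198, 1928 of 16887, 2194 of 14465 and 3566 of 14465. In Foxa2-floxed organoids Itgam, the integrin chain CD11b of myeloid cells, was the only one of 7 called, in a comparison that called 3.43% of all genes, and rose from 0.104 to 0.506 CPM (log2 change 2.22, adjusted p = 0.0403). Of 8 neutrophil markers, 3 and 4 were at 0 in these vehicle and 4-OHT groups, and 1 of 4 tested was called. It was Ly6g, a surface antigen of mouse neutrophils, which rose from 6.97 to 38.1 CPM (log2 change 2.85, adjusted p = 0.0103) and made up most of the list's sum after 4-OHT (25.4 to 77.6 CPM, beside 1.64 to 20.4 CPM with vehicle). The mean of S100a8 went from 0.516 to 0.661 CPM and that of S100a9 from 0.103 to 0.286 CPM, Retnlg from 0.585 to 0.368 CPM, and Elane, the neutrophil elastase gene, had no counts. Epithelial markers summed to 5221 to 18348 CPM over all libraries, fibroblast markers to at most 5.06 CPM, endothelial markers to at most 8.90 CPM, lymphocyte markers to at most 1.24 CPM and mast cell markers to at most 0.849 CPM. The part of any admixed cells in the member levels was not tested.

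Csf2, which encodes GM-CSF, was called higher after 4-OHT in Foxa2-floxed organoids and with both hairpins. In Foxa2-floxed replicates 1 to 4 it was at 0.620, 3.83, 0.656 and 0.395 CPM with vehicle and at 6.42, 16.3, 2.44 and 2.15 CPM after 4-OHT. Each 4-OHT library was above its paired vehicle library, but vehicle replicate 2 was above the 2 4-OHT libraries of line 1526C. Csf2 rose by a log2 change of 2.24 (SE 0.49, adjusted p = 0.0181). It was the single gene among the 5 members tested there to pass, in a comparison that called 3.43% of all genes in either direction and 1.89% as higher. Line 1267B went from 2.22 to 11.3 CPM, or 5.10-fold, and line 1526C from 0.525 to 2.30 CPM, or 4.37-fold. The call was lost without 4-OHT replicate 2 (1.86, adjusted p = 0.0642), 4-OHT replicate 3 (adjusted p = 0.0536), vehicle replicate 4 (adjusted p = 0.0688) or line 1526C (adjusted p = 0.380). It was also lost when the genotype was fitted alone (adjusted p = 0.124) or without line as a block (adjusted p = 0.868).

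In Foxa1-floxed organoids Csf2 ran from 0.231 to 1.65 CPM with vehicle (median 0.869) and from 0.738 to 3.29 CPM after 4-OHT (median 1.27), and the groups overlapped. The log2 change of 0.81 (SE 0.41) was not called (adjusted p = 0.466). The Foxa2-floxed effect exceeded the Foxa1-floxed effect by 1.47 on the log2 scale (95% interval 0.58 to 2.36), and this difference was not called over all genes (adjusted p = 0.529).

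Line 1027B with shScramble held Csf2 at 1.30 and 1.55 CPM with vehicle and at 5.14 and 4.91 CPM after 4-OHT. It rose by a log2 change of 1.81 (SE 0.35, adjusted p = 0.0255), where 4.33% of all genes were called and 1.67% as higher. With shNKX2-1 it was at 2.56 and 2.06 CPM and then at 9.74 and 9.25 CPM, a rise of 2.04 (SE 0.34, adjusted p = 0.0128), where 6.35% of genes were called and 2.72% as higher. Replicates lay close together, and both treated groups were separate from their vehicle groups, as were 32.6% and 24.9% of all genes in the upward direction. Both calls rest on a single tumour line. The shScramble call was lost with any 1 of its 4 libraries left out (adjusted p = 0.146 to 0.188), which leaves a single library in an arm. The shNKX2-1 call was lost without vehicle replicate 1 (adjusted p = 0.0860) or 2 (adjusted p = 0.134) and held without 4-OHT replicate 2 (2.07, adjusted p = 0.0127). In each hairpin comparison Csf2 was the single member called of 5 tested.

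Double-floxed organoids held the highest levels of Csf2 and had no common direction. Replicates 1 to 5 were at 1.37, 5.71, 25.6, 14.4 and 81.3 CPM with vehicle and at 2.74, 4.71, 137, 88.7 and 19.4 CPM after 4-OHT. The means were 25.7 ± 32.4 CPM (SD, n = 5) and 50.5 ± 59.8 CPM (n = 5), with a fitted log2 change of 0.91 (SE 1.52). In line 1027B the 4-OHT mean was 5.81-fold the vehicle mean and in 1292B it was 5.34-fold. Line 1027D went the other way, from 43.5 to 12.1 CPM, a ratio of 0.277. Within the title numbers of 1027D the ratios were 0.826 under 17699 and 0.239 under 17992, so the larger part of that difference came from replicate 5. Without line 1027B the fitted change was -0.65, and without 1027D it was 2.49. In both treatments the libraries of line 1027B under 17992 held more Csf2 than those under 17699, by 14.4 against 1.37 CPM with vehicle and 88.7 against 2.74 CPM after 4-OHT.

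**Figure D3:**
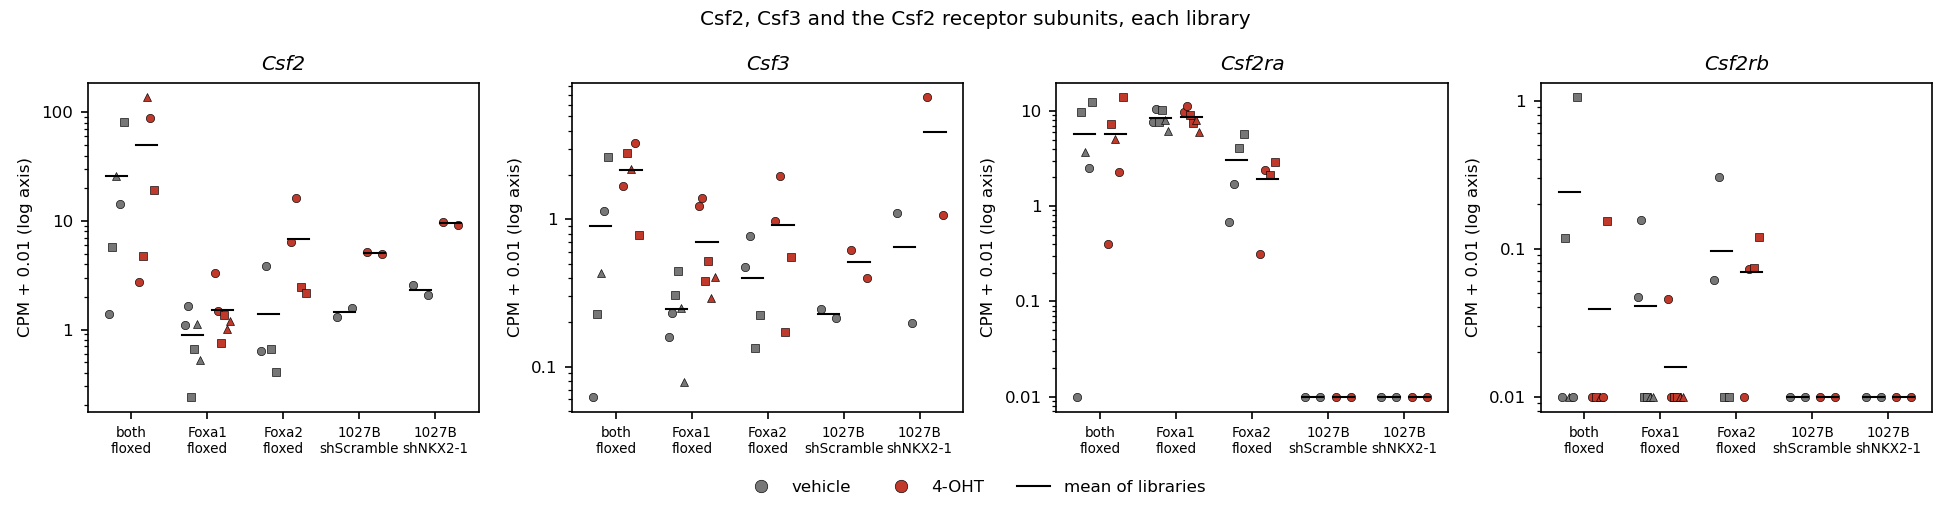
Levels of Csf2, Csf3, Csf2ra and Csf2rb in each library (CPM + 0.01, log axis), with vehicle in grey, 4-OHT in red, bars at the means and marker shapes for organoid lines within a group as in the plot of Csf1, Il34 and Csf1r. Csf2 reaches 137 CPM in double-floxed and 16.3 CPM in Foxa2-floxed libraries, Csf2ra lies at 5.96 to 11.2 CPM in Foxa1-floxed libraries and at 0 in all 8 hairpin libraries, and Csf2rb does not exceed 1.04 CPM.

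Csf2ra, the specific chain of the GM-CSF receptor, differed more between organoid lines than between treatments of a line. Foxa1-floxed libraries lay between 6.15 and 10.4 CPM with vehicle and between 5.96 and 11.2 CPM after 4-OHT. Their log2 change was 0.03 (95% interval -0.63 to 0.69, adjusted p = 0.986). Double-floxed replicates 1 to 5 were at 0, 9.68, 3.66, 2.51 and 12.5 CPM with vehicle and at 0.392, 7.29, 5.01, 2.28 and 13.8 CPM after 4-OHT. Line 1027D was the highest and 1027B the lowest in both treatments, and the log2 change was 0.09 (SE 0.81). Foxa2-floxed replicates 1 to 4 were at 0.671, 1.68, 4.06 and 5.67 CPM and then at 0.306, 2.40, 2.09 and 2.88 CPM. Line 1526C was at a ratio of 0.511, and the log2 change over both lines was -0.41 (SE 0.42, adjusted p = 0.768). Without 4-OHT replicate 2 that change was -1.21 (adjusted p = 0.0431). All 8 hairpin libraries had 0 counts of Csf2ra, which allows a level of up to 0.177 to 0.245 CPM per library, although the same line without a hairpin reached 2.51 CPM.

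Csf2rb, the signalling chain, had 51 counts in 11 of the 38 libraries and passed the filter on low counts in no table. Its highest level was 1.04 CPM (23 counts) in double-floxed vehicle replicate 5 of line 1027D, where 4-OHT left 0.144 CPM (5 counts). The 2 remaining counts of the double-floxed vehicle group were in replicate 2 of the same line. Foxa2-floxed libraries held at most 0.294 CPM, Foxa1-floxed libraries at most 0.147 CPM and the hairpin libraries none. Csf2rb2, a near-identical neighbouring gene whose reads may be split with it, had 3 counts in 1 library. No test was made of Csf2rb or Csf2rb2.

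Csf3, which encodes G-CSF, was low in every group. Double-floxed replicates 1 to 5 were at 0.0527, 0.217, 0.424, 1.13 and 2.62 CPM with vehicle and at 1.66, 2.83, 2.20, 3.26 and 0.777 CPM after 4-OHT. The 4-OHT library was the higher in 4 of 5 pairs and the lower in replicate 5 of line 1027D, at a ratio of 0.296. The log2 change was 1.39 (SE 0.88), with ratios of 4.16-fold in 1027B, 1.27-fold in 1027D and 5.18-fold in 1292B. Foxa1-floxed libraries had a median of 0.229 CPM with vehicle (0.0683 to 0.436) and 0.452 CPM after 4-OHT (0.283 to 1.38), a log2 change of 1.41 (SE 0.43, adjusted p = 0.234). Line 1552A contributed most, at 7.02-fold beside 1.20-fold and 2.22-fold. Foxa2-floxed replicates 1 to 4 were at 0.465, 0.757, 0.123 and 0.215 CPM and then at 0.969, 1.96, 0.161 and 0.548 CPM, a log2 change of 1.16 (SE 0.50, adjusted p = 0.285). With shScramble the levels were 0.236 and 0.203 CPM and then 0.612 and 0.387 CPM, a log2 change of 1.16 (SE 1.19, adjusted p = 0.749). With shNKX2-1 they were 1.10 and 0.188 CPM and then 6.70 and 1.06 CPM, a log2 change of 2.62 (SE 0.97, adjusted p = 0.152). Without shNKX2-1 4-OHT replicate 2 that change was 3.402 (adjusted p = 0.0360). The receptor gene Csf3r had 0 counts in all 38 libraries, which allows a level of up to 0.0863 to 0.245 CPM per library.

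In Foxa1-floxed organoids edgeR called none of the 6 members tested, in a comparison that called 0.0118% of all genes. At an unadjusted p under 0.05 there were 3 of the 6, namely Csf1, Csf1r and Csf3, beside 1928 of all 16887 genes. DESeq2 called 2, namely Csf1 and Csf1r, and its share of all genes is not given here. Upward separation without overlap, seen for 0.154% of all genes, was seen for no member. Tested against each other, the Foxa2-floxed and Foxa1-floxed effects differed for none of the 5 members tested by edgeR, where 0% of 18384 genes were called. Of these 5, Csf2 had an unadjusted p under 0.05, as did 1071 of the 18384 genes, and DESeq2 called none. The double-floxed libraries were normalised in a table of their own, so no test set them against the single-floxed libraries.

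**Figure D4:**
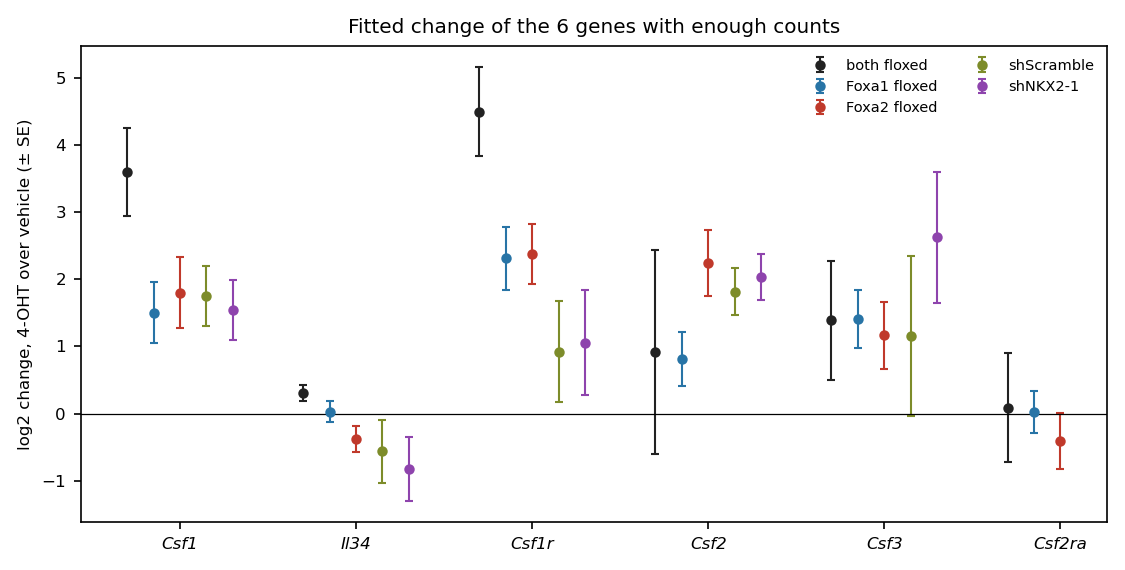
Fitted log2 change from vehicle to 4-OHT with its standard error for the 6 genes with enough counts, in the 5 treatment comparisons given by colour. Csf1r in double-floxed organoids has the highest value at 4.49, Csf1 lies at 1.499 to 3.60, Il34 at -0.82 to 0.31, and Csf2ra could not be fitted in the hairpin libraries, where it had no counts.

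The shNKX2-1 hairpin itself, set against shScramble within a treatment, changed no member past the threshold. With vehicle, edgeR called none of 5, none had an unadjusted p under 0.05, DESeq2 called none, and 0.235% of all genes were called. Of all 14465 genes, 1123 had an unadjusted p under 0.05 there. With 4-OHT, edgeR and DESeq2 again called none, and 1.58% of all genes were called. An unadjusted p under 0.05 was held by 2 of the 5 members and by 2016 of all 14465 genes. Those 2 were Csf2, higher with shNKX2-1 by a log2 of 0.92 (SE 0.32, adjusted p = 0.265), and Csf3, higher by 2.94 (SE 0.99, adjusted p = 0.232). Csf2 was also at the higher level with shNKX2-1 under vehicle, by 0.70 (SE 0.35, adjusted p = 0.767). Csf1 differed by 0.38 with vehicle (adjusted p = 1) and by 0.17 with 4-OHT (adjusted p = 0.859), and Csf1r by -0.57 (adjusted p = 1) and -0.43 (adjusted p = 0.792). The 4-OHT effect did not differ detectably between hairpins for any of the 5. Neither edgeR nor DESeq2 called any, none had an unadjusted p under 0.05 (782 of 14465 genes had), and 0% of genes were called. The 95% intervals of that difference were -1.60 to 1.20 for Csf1 and -0.89 to 1.33 for Csf2. These comparisons share libraries and are not independent.

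Related receptors and ligands and the signalling genes downstream of the receptors were mostly not called. Of a list of 12 relatives, such as the interleukin 3 and 5 genes and their receptors, Kit and Flt3 with their ligands, and the further Il34 receptors Ptprz1 and Sdc1, 5 or 6 were tested in each treatment comparison. None was called in double-floxed (3.9% of all genes called, median log2 change 0.03, beside 0.02 over all genes), Foxa1-floxed (0.0118%, median 0.20 beside 0.01), shScramble (4.33%, median 0.05 beside 0.02) or shNKX2-1 libraries (6.35%, median -1.01 beside 0.02). At an unadjusted p under 0.05, edgeR had none, 1, 1 and 2 of them in that order. Over all genes it had 3088 of 15198, 1928 of 16887, 2194 of 14465 and 3566 of 14465. In Foxa2-floxed libraries the median was 0.45 beside -0.01, and Ptprz1, a receptor tyrosine phosphatase, was the called one of 6, where 3.43% of all genes were called. Its levels were 16.1, 8.12, 0.902 and 0.897 CPM with vehicle and 34.3, 8.12, 4.34 and 7.34 CPM after 4-OHT, a log2 change of 1.60 (SE 0.43, adjusted p = 0.0479). Line 1267B held it at the higher level, and the call was lost without line 1526C (0.80, adjusted p = 1), without line as a block, and in 6 of the 8 fits that left out a library. In double-floxed organoids the Ptprz1 mean was 50.9 CPM with vehicle and 12.8 CPM after 4-OHT, with a log2 change of -0.95 (SE 1.01).

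Of 25 transducers and feedback genes, such as the Jak and Stat5 genes, Src family kinases and Socs inhibitors, 21 to 23 were tested per comparison. With shNKX2-1 1 of 21 was called, beside 6.35% of all genes, so the share is no higher than the background; it was Gab2, an adaptor that binds activated receptors. Gab2 rose from 2.27 and 1.38 CPM to 7.31 and 6.22 CPM (log2 change 1.89, SE 0.39, adjusted p = 0.0280), and the call was lost without either vehicle library. Double-floxed organoids, where 3.9% of all genes were called in either direction, had 1 of 22 called, close to that share, Socs2, a feedback inhibitor, at a log2 change of -0.93 (SE 0.20). None of 23 was called in Foxa1-floxed (0.0118% of all genes) and none of 21 in shScramble libraries (4.33%), where 7 and 1 had an unadjusted p under 0.05. So did 1928 of all 16887 and 2194 of all 14465 genes. The median log2 changes were 0.23 in double-floxed, 0.05 in Foxa1-floxed, 0.20 in shScramble and -0.34 in shNKX2-1 libraries, beside 0.02, 0.01, 0.02 and 0.02 over all genes.

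Levels of different genes were compared per kilobase of exon, as means over libraries, with the exons of all annotated transcripts joined. With vehicle Il34 was the most abundant member in Foxa1-floxed (15.01 CPM per kb), Foxa2-floxed (20.9), shScramble (31.1) and shNKX2-1 (33.7) libraries. In double-floxed vehicle libraries Csf2 led at 32.1 CPM per kb with Il34 at 25.4, and since Csf2 ranged from 1.37 to 81.3 CPM across those libraries their order is within the spread. After 4-OHT the double-floxed order was Csf2 at 63.1, Il34 at 31.2, Csf1 at 14.7, Csf2ra at 2.01, Csf3 at 1.52 and Csf1r at 1.51 CPM per kb, with the last 3 close together. Csf2 ranged from 2.74 to 137 CPM across these libraries too, so its place above Il34 is within the spread. In Foxa2-floxed libraries after 4-OHT it was Il34 at 16.4, Csf2 at 8.53, Csf1 at 3.20 and Csf1r at 0.749 CPM per kb. In Foxa1-floxed libraries after 4-OHT Il34 stood at 15.2, Csf2ra at 2.98, Csf2 at 1.88 and Csf1 at 1.24 CPM per kb. With a hairpin and 4-OHT, Csf1 (20.7) and Il34 (21.1) were level in shScramble libraries, and Csf1 stood at 23.3 beside Il34 at 19.02 CPM per kb in shNKX2-1 libraries. Over all 38 libraries the total counts were 22949 for Csf1, 36853 for Il34, 9916 for Csf2, 4826 for Csf2ra, 2015 for Csf1r and 788 for Csf3, with 51 for Csf2rb, so Csf2rb carries the largest counting error, followed by Csf3 and Csf1r.

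Across the 30 libraries without a hairpin, with log2 CPM centred on each of the 8 lines, Csf1 and Csf1r had a Pearson correlation of 0.810. The other pairs were lower, at 0.708 for Csf1 and Csf3, 0.638 for Csf2 and Csf3, 0.623 for Csf1r and Csf3, 0.545 for Csf2 and its receptor chain Csf2ra, 0.506 for Csf2ra and Csf3, 0.460 for Csf1 and Csf2 and 0.395 for Csf1 and Csf2ra. The remaining pairs lay between -0.158 and 0.248, among them Csf1r and Csf2 at 0.189, Csf1r and Il34 at 0.143 and Csf1 and Il34 at 0.073. The libraries share lines, treatments and depth, so the 15 pair values are a description. Among the libraries are those whose double-floxed changes, and Foxa2-floxed change of Csf1r, chose the list. A high correlation of Csf1 with Csf1r follows in part from that choice and supports nothing. Among 10496 other genes, those most like Csf1 by this measure were Arhgap35 (0.947), Htra1, a secreted serine protease (0.939), Plekhm3 (0.933), Ano6, a phospholipid scramblase (0.924), and Fam171a1 (0.921). Those most like Csf1r among 10497 were Cuedc1 (0.903), Fam167a (0.898), Ift22 (0.872), Mfsd1 (0.868) and Coro6 (0.857). The lists of the nearest 5 genes shared none. The difference between treatments was not taken out of this measure.

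On GRCm38, from the GENCODE M21 annotation, Csf1 lies at chr3:107741048-107760469 on the minus strand, Il34 at chr8:110741829-110805924 on the minus strand and Csf3 at chr11:98701263-98703629 on the plus strand. Csf2 lies at chr11:54247271-54249667 on the minus strand, Csf2ra at chr19:61223957-61228429 on the minus strand and Csf2rb at chr15:78325752-78353847 on the plus strand. Counts are over whole genes, so isoforms are not separated.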

How the data were processed

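As deposited, the 3 tables give reads counted per gene, by Ensembl ID, and the counts are not normalised: when checked they were whole numbers with library totals that differed. Per the submitters' processing notes the genome build was GRCm38, and the tools were featureCounts 1.5.1, STAR 2.7.6a and DESeq2. The sources used here do not give the strand setting, the annotation release or how reads with several matches were counted, so reads of Csf2rb and Csf2rb2 may be split between them. Symbols were matched to 99.4 to 99.5% of the IDs.

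Genes were filtered with filterByExpr and scaled by TMM in R 4.3.3 with edgeR 4.0.16, which left 15198 genes in the double-floxed, 16887 in the single-floxed and 14465 in the hairpin table. Of the 7 genes, 6, 6 and 5 passed. Tests were edgeR quasi-likelihood F tests with Benjamini-Hochberg adjustment over all genes tested, at a threshold of 0.05. Organoid line was a block in the first 2 tables and the hairpin table had 4 group means. Effects of the single-floxed genotypes were compared on counts summed per line and treatment (18384 genes). Pairing by line rests on the labels: vehicle and 4-OHT deviations of the same line correlated at r = 0.734 to 0.800 with both genes floxed, 0.834 to 0.898 with Foxa1 floxed and 0.881 with Foxa2 floxed. Repeat libraries of a line differed beyond sampling noise and were kept apart. Likeness used log2 CPM with a prior count of 2, over genes with a mean log2 CPM of at least 2, naming the 5 nearest genes. Pathway genes were named where called, up to 6 a comparison. The Foxa2-floxed result of the list of transducers and feedback genes is not reported here. The script was tested on simulated counts. Alternatives were RLE scaling, no filter, DESeq2 1.42.0, other blocks, genotypes fitted alone and each line or library left out. The members and all lists were chosen with earlier results of these data known.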

Additional observations from a re-analysis of the deposited data

Results flagged for a closer look

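In groups of 4 to 6 libraries, a library was singled out where its gap to the nearest other took up an unusually large share of the group's range (Dixon's 95% critical values). Of 42 combinations of gene and group, 9 had such a library. Chance gives about 1 in 20 for normally distributed values. CPM need not be so distributed, and all 9 stood out on the high side. Of the 9, 4 are of Csf2rb, where a library with counts among libraries at or near 0 stands out by construction. Libraries of a group also share lines, so no excess is read from the number. Csf1 stood out in double-floxed vehicle replicate 4 at 32.0 CPM (the others at 0.815 to 9.01) and in Foxa2-floxed 4-OHT replicate 2 at 42.5 CPM (7.92 to 9.23). Csf1r stood out in double-floxed vehicle replicate 3, the single pair of line 1292B, at 1.54 CPM (0.0354 to 0.326). Csf2 stood out in Foxa2-floxed vehicle replicate 2 at 3.83 CPM (0.395 to 0.656) and in Foxa1-floxed 4-OHT replicate 1 at 3.29 CPM (0.738 to 1.47). Replicate 2 of the Foxa2-floxed line 1267B was thus the highest for Csf1 after 4-OHT and for Csf2 with vehicle.

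The other 4 values are of Csf2rb and rest on 1 to 23 counts. They were 1.04 CPM in double-floxed vehicle replicate 5 (the others at 0 to 0.109), 0.144 CPM in 4-OHT replicate 5 of the same line (the others at 0), 0.147 CPM in Foxa1-floxed vehicle replicate 2 (0 to 0.0374) and 0.0357 CPM in Foxa1-floxed 4-OHT replicate 1 (the others at 0).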

How the results depend on the processing

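Counts of genes called among the 7 were 2 in double-floxed organoids (Csf1 and Csf1r), none in Foxa1-floxed, 2 in Foxa2-floxed (Csf1r and Csf2), 1 with each hairpin (Csf2) and none in the other comparisons. The double-floxed calls and the Foxa2-floxed call of Csf1r are of values that chose the list, so they support nothing and are counted here to show how the fits depend on their settings. Without a filter on low counts they were 3 in Foxa1-floxed, 2 with shScramble, 3 with shNKX2-1 and 1 (Csf3) for shNKX2-1 against shScramble with 4-OHT. DESeq2 called 2 in Foxa1-floxed, 2 with shScramble and 2 with shNKX2-1. With no replicate block, 0 were called in double-floxed and 0 in Foxa2-floxed organoids, where a block of line and title number called 2 and 3. In Foxa2-floxed organoids 1 was called on counts summed per line, 1 with the genotype fitted alone and 0 without line 1526C. Without line 1552B, 1 was called in Foxa1-floxed organoids, and in double-floxed organoids 1 without 1027B, 0 without 1027D and 1 without 1292B. With a library left out, the counts ran from 1 to 2 with both genes floxed, 0 to 1 with Foxa1 floxed, 1 to 3 with Foxa2 floxed, 0 to 0 with shScramble and 0 to 3 with shNKX2-1. They ran from 0 to 1 for shNKX2-1 against shScramble with 4-OHT, and 0 to 1 for the difference between hairpin effects. Except with no replicate block, the calls among all genes are given below as ranges and not fit by fit. No excess of member calls over all genes is therefore read from these counts. Over the alternatives the calls among all genes ran from 0 to 2391 with both genes floxed (592 as reported), 0 to 1141 with Foxa1 floxed (2), 5 to 1816 with Foxa2 floxed (580), 138 to 1372 with shScramble (627) and 258 to 6946 with shNKX2-1 (919). For the difference between the single-floxed effects they ran from 0 to 145 (0), and for the hairpins against each other from 0 to 461 with vehicle (34), 0 to 5758 with 4-OHT (228) and 0 to 3552 for the difference between effects (0). With no replicate block, 82 genes were called in double-floxed, 1 in Foxa1-floxed and 5 in Foxa2-floxed organoids.

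Directions held for Csf1, Csf1r and Csf3 in the double-floxed and both single-floxed comparisons under every alternative run. Leaving out a line turned Csf2 in double-floxed organoids (-0.65 without 1027B), Csf2ra in Foxa2-floxed (0.23 without 1526C) and Foxa1-floxed organoids (-0.076 without 1552A), and Il34 in Foxa1-floxed organoids (-0.064 without 1552B, -0.043 without 1552C). In the difference between single-floxed effects it turned Csf1 (-0.029 without 1267B, -0.020 without 1552B), Csf1r (-0.39 and -0.68), Csf2ra (0.33 without 1526C) and Csf3 (0.52 without 1552A). Leaving out a library turned Csf2 (-0.93 to 2.04) and Csf2ra (-0.31 to 0.82) in double-floxed organoids, Il34 (-0.023 to 0.17) and Csf2ra (-0.048 to 0.088) in Foxa1-floxed organoids, and Csf1r (-0.40 to 2.23) with shNKX2-1. For shNKX2-1 against shScramble the ranges that crossed 0 were -0.17 to 0.77 (Csf1), -1.75 to 0.093 (Csf1r), -0.095 to 0.29 (Il34) and -0.23 to 2.28 (Csf3) with vehicle, and -0.62 to 0.67 (Csf1), -1.88 to 0.26 (Csf1r) and -1.31 to 0.48 (Il34) with 4-OHT. For the difference between hairpin effects they were -0.98 to 0.35 (Csf1), -1.29 to 1.33 (Csf1r), -1.41 to 0.39 (Il34) and -0.40 to 3.18 (Csf3). The cause of these shifts was not tested. Depth limits Csf2rb in all tables and Csf1r with vehicle, where a library held as little as 1 count.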
